A study of Homo sapiens with 4 samples.

Results

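The kallikrein-related peptidases are secreted serine proteases whose genes stand side by side on the long arm of human chromosome 19. The values of 10 of these genes, KLK1, KLK3, KLK4, KLK5, KLK6, KLK7, KLK8, KLK10, KLK11 and KLK13, are described here. They were taken as the rows of the value table whose platform annotation gives one of these symbols, and each matched exactly 1 transcript cluster, the array's unit for a gene, among 18417 genes measured on clusters of their own. The arrays compared OVCAR-3 cells labelled as overexpressing human H1.3, a linker histone (2 arrays), with OVCAR-3 cells transfected with a vector that lacks H1.3 (2 arrays, called vector-only below). OVCAR-3 is an established human ovarian carcinoma line. The labels call the replicates biological without saying if each had its own transfection or clone, so a p-value here reflects array-to-array spread that could be technical. All levels are log2 values as the authors normalized them, and all differences are H1.3 minus vector-only on that scale, so that -1 stands for a level 2-fold lower. The gene for H1.3 itself, H1-3, measured 7.47 and 7.69 in the arrays labelled H1.3, against 8.65 and 7.88 in the vector-only arrays. Its level ran against the label (adjusted p 0.319 in limma), and every direction below refers to the labels.

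Kallikreins are made as inactive precursors, and cleavage by other trypsin-like enzymes, among them other kallikreins, switches them on in a cascade. Serpins and Kazal-type inhibitors hold the active enzymes in check. In skin the cascade cuts the junctions that hold dead surface cells together, in the prostate it liquefies semen, and several members are known as proteins made in excess by ovarian carcinomas. Steroid hormones control the prostate members KLK2 and KLK3, whose genes run in the opposite direction to their neighbours.

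Promoter sequences of KLK6 and KLK10 are shown because both measured lower in the arrays labelled H1.3, and those of KLK5 and KLK7 because they flank KLK6 and had positive differences. KLK8 and KLK9 lie between KLK7 and KLK10 and are not shown, as KLK8 has no entry and KLK9 is not among the 10. Each line gives 300 bases of the RefSeq table of GRCh38.p14, from 250 before to 50 after the first start listed, 5′ to 3′ on the gene's own strand. Capitals mark matches to GGGCGG, known as the GC box, or CCAAT, on either strand.
KLK5 (chr19:50952989-50953288, minus strand): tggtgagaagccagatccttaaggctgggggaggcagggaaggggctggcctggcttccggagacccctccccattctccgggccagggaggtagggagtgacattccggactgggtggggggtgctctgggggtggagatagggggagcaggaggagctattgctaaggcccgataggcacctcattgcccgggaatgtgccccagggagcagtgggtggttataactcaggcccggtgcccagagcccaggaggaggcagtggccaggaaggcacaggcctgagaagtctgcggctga
KLK6 (chr19:50969542-50969841, minus strand): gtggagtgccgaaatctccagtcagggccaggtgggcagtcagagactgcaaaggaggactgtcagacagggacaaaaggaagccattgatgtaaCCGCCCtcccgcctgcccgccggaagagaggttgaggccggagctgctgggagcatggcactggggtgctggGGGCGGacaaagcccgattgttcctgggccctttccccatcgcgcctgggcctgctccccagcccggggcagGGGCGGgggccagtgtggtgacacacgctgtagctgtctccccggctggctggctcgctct
KLK7 (chr19:50983868-50984167, minus strand): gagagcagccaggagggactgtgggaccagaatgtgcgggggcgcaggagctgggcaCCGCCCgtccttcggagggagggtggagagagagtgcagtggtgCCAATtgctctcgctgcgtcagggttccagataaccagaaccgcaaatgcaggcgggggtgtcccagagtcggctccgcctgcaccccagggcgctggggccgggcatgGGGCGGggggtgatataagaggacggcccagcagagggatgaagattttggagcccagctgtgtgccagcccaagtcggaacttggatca
KLK10 (chr19:51019812-51020111, minus strand): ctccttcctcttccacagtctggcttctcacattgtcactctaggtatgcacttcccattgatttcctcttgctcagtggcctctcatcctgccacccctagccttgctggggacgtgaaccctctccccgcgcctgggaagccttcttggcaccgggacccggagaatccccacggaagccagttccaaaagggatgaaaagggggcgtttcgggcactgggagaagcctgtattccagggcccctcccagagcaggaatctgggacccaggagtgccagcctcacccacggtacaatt
KLK5 and KLK6 have 1 start in that table, KLK10 has 2 and KLK7 has 3.

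The KLK6 promoter holds 3 GC boxes, the KLK7 promoter 2 and those of KLK5 and KLK10 none, and KLK7 alone of these 4 has a CCAAT. Of 27305 promoters of this length, 1 for each gene, 44.59% held a GC box and 35.70% a CCAAT. None of the 4 held TATAAA, the steroid receptor half-site AGAACA or the AP-1 motif TGANTCA on either strand, which 11.95%, 14.85% and 7.76% of all promoters held. No matches overlapped in these 4. CpG dinucleotides numbered 15 in KLK6, 16 in KLK7, 9 in KLK10 and 7 in KLK5 (KLK9, not shown, had 6 with 1 GC box), against a median of 14 over all promoters. GC content was 66.33% in KLK6, 65.0% in KLK7, 64.67% in KLK5 and 59.0% in KLK10, against a median of 58.33% over all promoters. Relative to the number that the C and G content predicts, CpG was at 0.46, 0.54, 0.24 and 0.35 in that order. The median of this ratio over all promoters was 0.58. A relation between promoter composition and the transcript differences was not tested. Among the other members listed, KLK3 was the 1 with TATAAA and the 1 with AGAACA, whose first base is at -170 counted from its start. KLK13 had 15 CpG and 2 overlapping GC boxes, and KLK3, KLK4 and KLK11 had 2 or 3 CpG each. A match is a description of these letters and not evidence of binding.

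KLK6, a trypsin-like protease known from brain and from ovarian carcinoma, showed the largest difference of the 10. Its level was 6.92 and 7.65 in the arrays labelled H1.3, against 8.62 and 8.93 in the vector-only arrays. Both arrays labelled H1.3 lay below both vector-only arrays, by more than the distance between replicates of either group. The difference was -1.49 ± 0.24 (SE), or 2.81-fold lower, with a 95% interval of -2.05 to -0.93. It did not pass in limma, with an adjusted p of 0.0619. Of the 21214 named clusters, 24 had a difference as low or lower, and 130 had a limma p as small or smaller, KLK6 included in both. Left out in turn, each array gave a difference between -1.855 and -1.125, the last being the value without H1.3 replicate 1.

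KLK8 and KLK10, which lie beyond KLK7 in the order of the locus, had smaller differences of the same sign. KLK8 (neuropsin, a protease studied in brain and skin) measured 7.52 and 7.73 in the arrays labelled H1.3, against 8.17 and 7.87 in the vector-only arrays. KLK10 measured 7.60 and 7.82 in the arrays labelled H1.3, against 8.12 and 8.02 in the vector-only arrays. In both genes the groups did not overlap, but the gap between the nearest arrays of the 2 groups was no larger than the distance between the H1.3 replicates. The difference was -0.395 ± 0.15 for KLK8 and -0.36 ± 0.13 for KLK10 (SE), and in limma the adjusted p was 0.362 and 0.335. Both stayed below 0 with each array left out, from -0.545 to -0.245 for KLK8 and from -0.47 to -0.25 for KLK10. The KLK8 value nearest 0 was that without vector-only replicate 1. The KLK8 cluster and that of its neighbour KLK9 share 1 annotated transcript, so part of their signal may be common.

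KLK5 and KLK7 encode the trypsin-like and the chymotrypsin-like enzyme of skin shedding, and KLK5 is able to activate KLK7. KLK5 measured 9.50 and 9.40 in the arrays labelled H1.3, against 9.43 and 9.22 in the vector-only arrays. KLK7 measured 6.81 and 7.53 in the arrays labelled H1.3, against 6.79 and 7.20 in the vector-only arrays. The groups overlapped in both genes, and for KLK7 the replicates of each group lay farther apart than the group means. The difference was 0.125 for KLK5 with an interval of -0.18 to 0.43, and it was 0.175 for KLK7 with an interval of -0.40 to 0.75. For KLK5 it was 0.02 with vector-only replicate 2 left out, and 0.23 when replicate 1 of that group was left out instead. The KLK7 interval is wide, and a shift of moderate size in either direction was not detectable with these arrays. Its sign turned without H1.3 replicate 2 (-0.185) or without vector-only replicate 1 (-0.03), and the difference was 0.535 without H1.3 replicate 1. Such fits set unlike replicate numbers against each other, and replicate 2 was the higher in both groups. By equal number, the arrays labelled H1.3 were the higher, at 6.81 against 6.79 and 7.53 against 7.20. No label pairs the arrays.

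**Figure D1:**
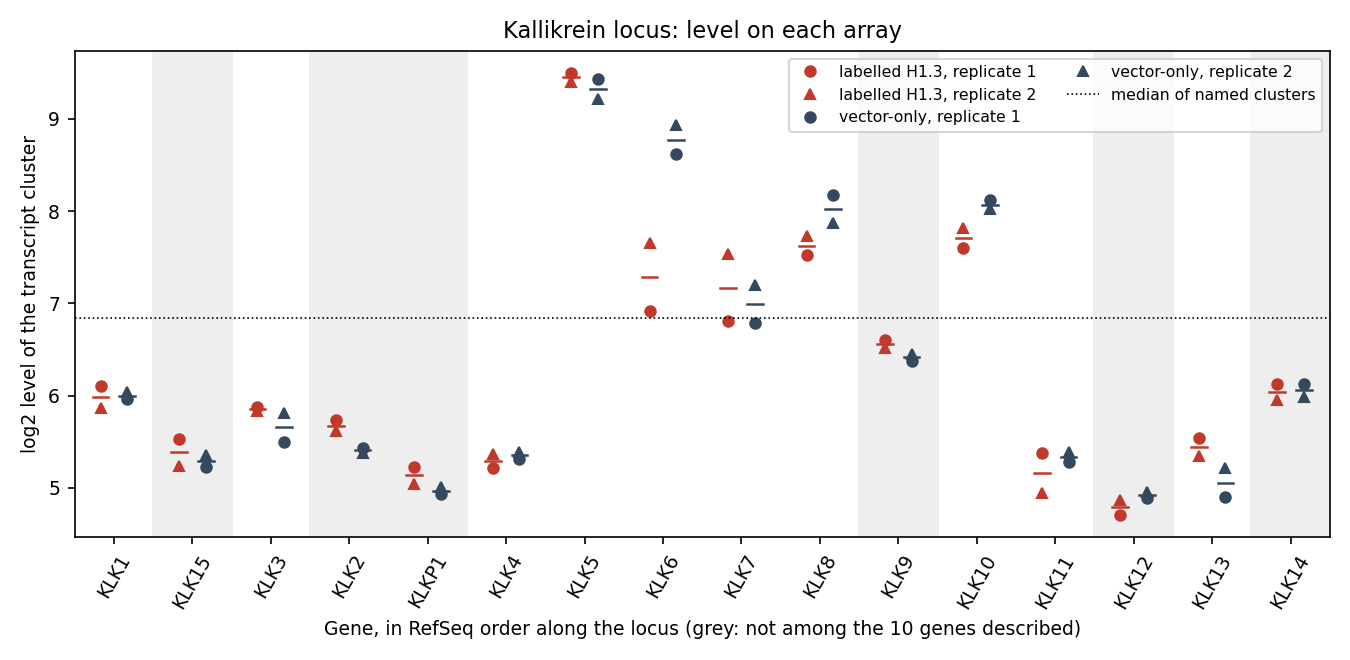
Log2 level of each transcript cluster of the locus (vertical axis) in RefSeq gene order (horizontal axis). Circles and triangles are replicates 1 and 2, red for arrays labelled H1.3 and dark blue for vector-only arrays, short lines are group means, and grey columns mark locus genes outside the 10. The gap between the groups is widest for KLK6, at 7.285 against 8.775, and small elsewhere.

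KLK6 and KLK7 also varied in step between replicates. Replicate 2 exceeded replicate 1 by 0.73 for KLK6 and 0.72 for KLK7 in the arrays labelled H1.3, and by 0.31 and 0.41 in the vector-only arrays. Taken within each array, the log2 value of KLK6 minus that of KLK7 was 0.11 and 0.12 in the arrays labelled H1.3, against 1.83 and 1.73 in the vector-only arrays. The difference in this contrast was thus -1.665, with a distance between replicates of at most 0.10, and the contrast was chosen with the values known. The contrast of KLK6 against KLK5 differed by -1.615 between the groups, but its replicates lay far apart, at -2.58 and -1.75 in the arrays labelled H1.3, against -0.81 and -0.29 in the vector-only arrays. Smaller values were found for KLK8 against KLK7 (-0.57), KLK8 against KLK9 (-0.54) and KLK10 against KLK9 (-0.505). Without vector-only replicate 1 the contrast of KLK8 with KLK7 was -0.215 and that with KLK9 was -0.355, and without vector-only replicate 2 that with KLK7 was -0.925. An exact two-sided permutation test over arrays gave p = 0.333 for 4 of these 5 contrasts and p = 0.667 for KLK8 against KLK7. The smallest p that 2 arrays against 2 allow is 0.333, so this test could pass for none of them. Each of the 5 sets a gene with a negative difference against a neighbour with a positive one.

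The remaining 5 members lay below the median level of the named clusters, and their values carry less signal. KLK13, a protease known from testis and oral epithelium, measured 5.54 and 5.34 in the arrays labelled H1.3, against 4.90 and 5.21 in the vector-only arrays. Its groups did not overlap, and the difference of 0.385 ± 0.15 (SE) had an adjusted p of 0.381 in limma. Without vector-only replicate 1 it was 0.23. KLK3 (prostate-specific antigen, which cleaves the semenogelins of semen) measured 5.88 and 5.83 in the arrays labelled H1.3, against 5.50 and 5.81 in the vector-only arrays. These groups missed each other by little, and the difference of 0.20 ± 0.14 (SE) was smallest when vector-only replicate 1 was left out (0.045) and was 0.355 when vector-only replicate 2 was. Clusters below the median level had a median difference of 0.035 as a whole, and 58.4% of them were positive. The part of this overall shift in the values of KLK13 and KLK3 was not tested.

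KLK1, KLK4 and KLK11 showed differences close to 0 with overlapping groups. KLK1 (tissue kallikrein, which releases kinins from kininogen) measured 6.10 and 5.87 in the arrays labelled H1.3, against 5.96 and 6.04 in the vector-only arrays, and differed by -0.015, with an interval of -0.32 to 0.29. KLK4, which matures tooth enamel, measured 5.21 and 5.37 in the arrays labelled H1.3, against 5.31 and 5.39 in the vector-only arrays, and differed by -0.06, with an interval of -0.35 to 0.23. KLK11, a trypsin-like enzyme, measured 5.38 and 4.94 in the arrays labelled H1.3, against 5.28 and 5.39 in the vector-only arrays, and differed by -0.175, with an interval of -0.56 to 0.21. Its lowest value was that of H1.3 replicate 2, and without that array the difference was 0.045. The interval of KLK11 reaches below the -0.36 of KLK10, whereas those of KLK1 and KLK4 do not.

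**Figure D2:**
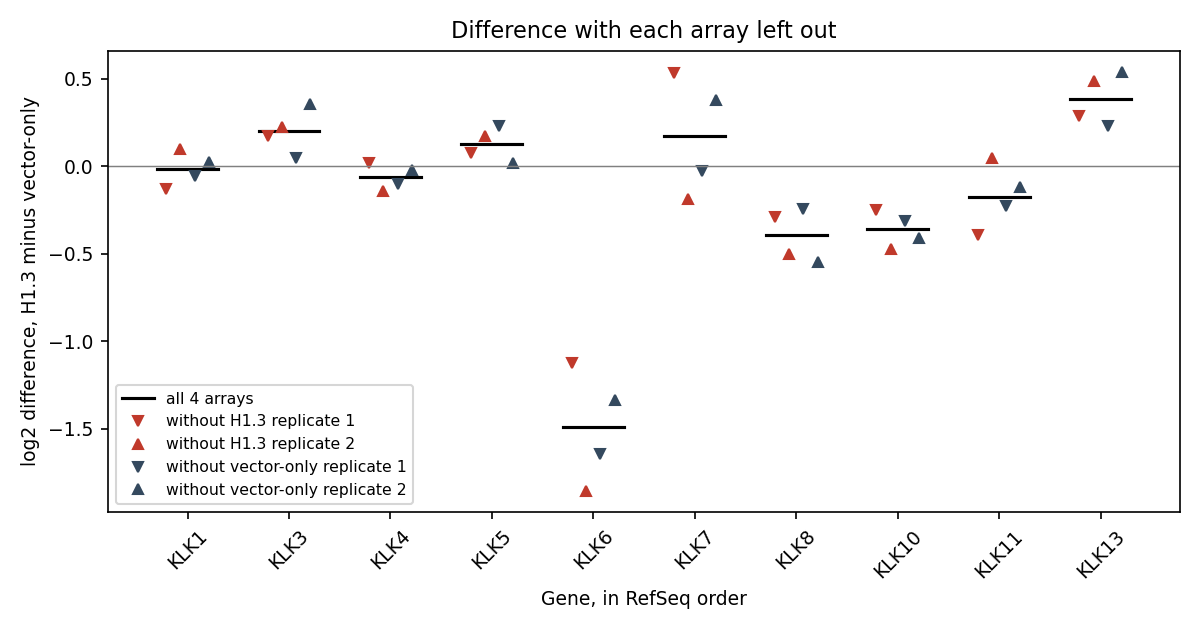
Log2 difference, H1.3 minus vector-only (vertical axis), for each of the 10 genes (horizontal axis), with all 4 arrays (black line) and with 1 array left out (triangles, coloured by the array removed). KLK6 stays between -1.855 and -1.125, whereas the triangles of KLK1, KLK4, KLK7 and KLK11 fall on both sides of 0.

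Over the 10 members, 0 passed in limma at an adjusted p under 0.05, against 0.504% of the 21214 named clusters (0.24% higher and 0.264% lower). At an unadjusted p under 0.05 there were 4 members, KLK6, KLK8 and KLK10 on the lower side and KLK13 on the higher side, against 11.5% of all named clusters. On the lower side alone the background was 6.34%, and on the higher side 5.21%. The groups did not overlap for 5 members, 3 lower and 2 higher, against 40.6% of all named clusters (19.4% lower and 21.2% higher). The share of members without overlap is near that background. Of the members, 4 had a positive and 6 a negative difference, against 52.8% of all named clusters with a positive one. The median was -0.0375 for the members and 0.015 over all named clusters.

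The members divide evenly by level. The 5 members at or above the median level were KLK5, KLK6, KLK7, KLK8 and KLK10, with a median difference of -0.36, and 3 of them had an unadjusted p under 0.05 on the lower side, as did 9.03% of the 10610 named clusters at that level. Without overlap on the lower side were the same 3, against 25.9% of those clusters, and 2 of the 5 had a positive difference, against 47.2%. The 5 members below the median level had a median difference of -0.015, 2 were without overlap on the higher side, against 20.7% of clusters at that level, and 1 had an unadjusted p under 0.05 on the higher side, against 4.34%.

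By position, the genes with differences below -0.3 were not a single block. In RefSeq order, KLK5 (0.125), KLK6 (-1.49), KLK7 (0.175), KLK8 (-0.395), KLK9 (0.145), KLK10 (-0.36), KLK11 (-0.175) and KLK12 (-0.13) follow each other. The estimates alternated in sign from KLK5 to KLK10, but the positive values of KLK5 and KLK7 are less secure. That of KLK9 stayed positive with each array left out, from 0.105 to 0.185. KLK5 was close to 0 without vector-only replicate 2, and KLK7 was negative without H1.3 replicate 2 or vector-only replicate 1. Those KLK7 values set unlike replicate numbers against each other. The intervals of KLK5, KLK7 and KLK9 (-0.13 to 0.42 for KLK9) all included 0, so alternating signs were not established. The interval of KLK6 did not reach those of KLK5 and KLK7 on either side, while the intervals of KLK8 and KLK10 overlapped with those of KLK7 and KLK9. Toward the end that begins with KLK1, no gene from KLK1 to KLK5 had an interval that excluded 0, with differences from -0.06 for KLK4 to 0.27 for KLK2. At the other end, KLK13 (0.385) stood between KLK12 (-0.13) and KLK14 (-0.02).

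The locus holds 6 further measured genes, KLK15, KLK2, the pseudogene KLKP1, KLK9, KLK12 and KLK14, all below the median level. Their differences lay between -0.13 and 0.27 with a median of 0.12, which 1 array moved, to 0.01 without H1.3 replicate 1 and to 0.2125 without H1.3 replicate 2. Of them 0 passed in limma, against 0.504% of all named clusters, and 0 had an unadjusted p under 0.05, against 11.5%. The same shares are the background for such counts in the lists below. The groups did not overlap for 4 of the 6, 3 higher and 1 lower, against 40.6% of all named clusters. KLK2, the prostate protease most like KLK3, measured 5.73 and 5.62 in the arrays labelled H1.3, against 5.43 and 5.38 in the vector-only arrays, and differed by 0.27 at an adjusted limma p of 0.441. KLK1, KLK2 and KLK3 are close relatives, and their probes could pick up each other's transcripts. KLKB1, plasma kallikrein, a liver protease of different origin whose gene lies elsewhere, differed by 0.12 with an adjusted p of 0.799.

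The neighbours outside the locus had small median differences. The 10 measured genes before KLK1 had a median difference of 0.04 and ranged from -0.23 to 0.27. This median turned sign with 1 array left out, at -0.115 without H1.3 replicate 1 and 0.1975 without H1.3 replicate 2. The 10 after KLK14 had a median of 0.0775 and ranged from -0.085 to 0.37, and that median was 0 without H1.3 replicate 1 and 0.1575 without H1.3 replicate 2. None of these 20 passed in limma, and 1 had an unadjusted p under 0.05, against 11.5% of all named clusters. That gene was SIGLEC9, whose difference of 0.37 was close in size to those of KLK10 (-0.36) and KLK13 (0.385). The genes that adjoin the locus are TMEM277P, at 0.175, and CTU1, at 0.035. The difference of KLK6 lay outside the range of all 35 other genes in and around the locus, which ran from -0.395 for KLK8 to 0.385 for KLK13.

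**Figure D3:**
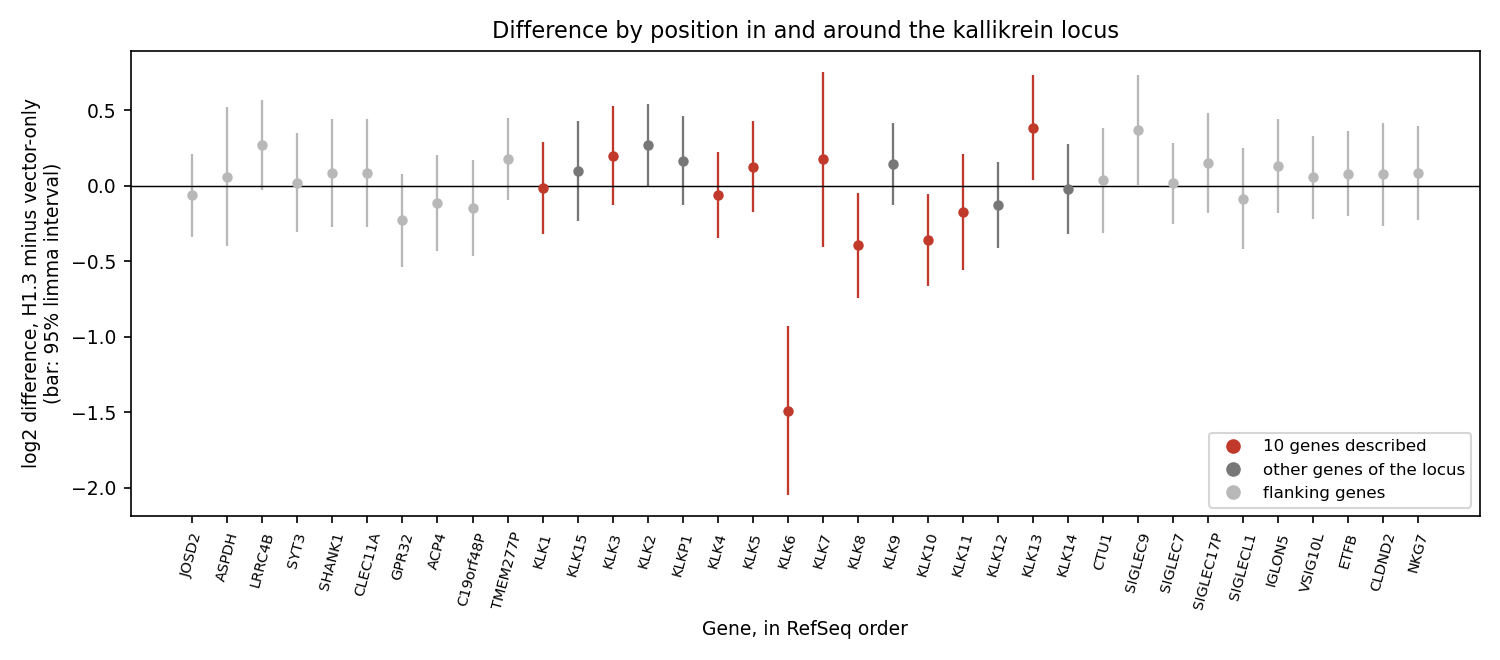
Log2 difference, H1.3 minus vector-only (vertical axis, bars are 95% limma intervals), in RefSeq gene order (horizontal axis) for the 10 members (red), the other locus genes (dark grey) and 10 flanking genes on each side (light grey). KLK6 at -1.49 stands apart from its neighbours KLK5 and KLK7, and the flanking genes lie between -0.23 and 0.37.

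Among proteases that activate kallikreins or are activated with them, 10 of 11 were measured, 0 passed in limma, and the median difference was 0.0225. PLAU, urokinase, measured 7.01 and 7.79 in the arrays labelled H1.3, against 8.61 and 8.52 in the vector-only arrays, and differed by -1.165 ± 0.24 (SE, adjusted limma p 0.103). ST14 (matriptase, a membrane protease of epithelia) measured 8.62 and 8.92 in the arrays labelled H1.3, against 9.42 and 9.38 in the vector-only arrays, and differed by -0.63 ± 0.14 (SE, adjusted limma p 0.119). In both genes the groups did not overlap, with H1.3 lower, as in 25.9% of named clusters at or above the median level. Of the 10 measured proteases 6 were without overlap, 4 lower and 2 higher, against 40.6% of all named clusters. PRSS8 (prostasin, the membrane-anchored partner of matriptase) differed by 0.04. The other members of that list with the smallest p were PLG, plasminogen, at 0.235, and HPN, hepsin, at -0.185.

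Of 10 inhibitors 9 were measured, with a median difference of -0.10, and 0 passed in limma. SERPINA1, alpha-1-antitrypsin, measured 6.55 and 6.59 in the arrays labelled H1.3, against 7.41 and 7.17 in the vector-only arrays, and differed by -0.72 ± 0.13 (SE, adjusted limma p 0.0820). SERPINA5 (the protein C inhibitor, which binds several kallikreins) measured 5.53 and 4.92 in the arrays labelled H1.3, against 5.92 and 5.57 in the vector-only arrays, and differed by -0.52 with an adjusted p of 0.421 in limma. This difference was -0.215 without H1.3 replicate 2 and -0.825 without H1.3 replicate 1. SERPINF2 differed by -0.185 and SPINK6, a Kazal-type inhibitor of skin kallikreins, by -0.125. Apart from SERPINA1, all measured inhibitors lay below the median level.

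Of 23 substrates and receptors 21 were measured, with a median difference of 0.105. FLG, profilaggrin of the cornified layer, rose, with 12.00 and 11.30 in the arrays labelled H1.3, against 9.89 and 9.85 in the vector-only arrays, a difference of 1.78 and an adjusted p of 0.0302 in limma. A fit without 1 array leaves a single array in a group and cannot decide that call. The lowest difference in such fits was 1.43, without H1.3 replicate 1. The call did not hold in every refit of all 4 arrays. The other 20 did not pass. IGFBP3, a binding protein of insulin-like growth factors that KLK3 can cleave, differed by -0.565, the kinin receptor gene BDKRB2 by -0.375 and the desmosomal cadherin gene DSC1 by 0.29. Among 5 measured hormone receptors of 6, 0 passed and the median was -0.02. VDR differed by -0.17, ESR1 by 0.13, ESR2 by -0.075 and NR3C1 by 0.025.

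**Figure D4:**
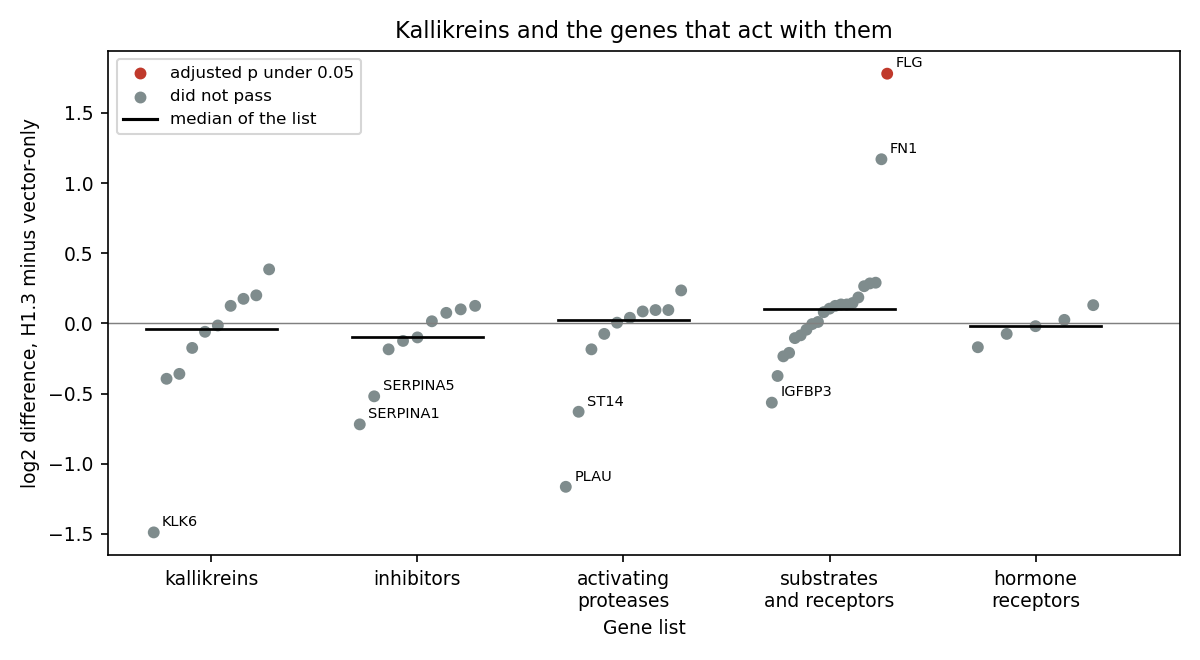
Log2 difference, H1.3 minus vector-only (vertical axis), of the 10 kallikreins and of 4 lists of genes that act with them (horizontal axis), where each point is 1 gene and the black line the median of its list. FLG alone passed, in red at 1.78, and KLK6 and PLAU are the lowest points, at -1.49 and -1.165.

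Pearson's r between arrays, across named clusters that are not independent replicates, was 0.987 to 0.993. All 10 epithelial and ovarian markers lay above the median level, with a median difference of -0.04. Of these markers 4 were positive, 5 negative and 1 at 0. The lowest were EPCAM at -0.565 and MSLN at -0.49, and the highest was KRT7 at 0.32, none passing. The log2 values of the whole list summed to 107.48 and 107.88 in the arrays labelled H1.3, against 109.23 and 108.47 in the vector-only arrays. Median differences of markers of fibroblasts, leukocytes and endothelium were 0.055, 0.055 and -0.0175, and 1 of 5, 0 of 4 and 0 of 4 of their genes reached the median level. Of prostate markers 2 of 4 were measured, with ACP3 at -0.95 (adjusted p 0.0887) and HOXB13 at 0.135. The 5 markers of cornified epidermis other than FLG lay between 0 and 0.135. The part of these shifts in the kallikrein values was not tested, and fewer cells of a kind and less RNA per cell cannot be told apart in bulk RNA.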

How the data were processed

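Total RNA of 4 OVCAR-3 samples was hybridised to 4 one-colour Affymetrix arrays. The series text names a Human Exon ST array, whereas the identifiers match GEO's annotation of a Human Gene ST array, through which every gene was named, and the platform was not settled here. The authors deposited log2 values for 33297 transcript clusters, 1 column per array, and per the submitters' processing notes the tools were RMA and Affymetrix Expression Console (versions not given in the sources used here). Probe intensities were not used here. No source used here gives the build behind the probes, so no coordinates are given for the array's clusters. Gene order, and the promoters with their coordinates, come from RefSeq (GRCh38.p14). A promoter entry was found for 13 of 16 locus genes, the first listed start was used, and KLK1, KLK8 and KLKP1 had none.

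The members and gene lists were chosen with earlier results of these data known. Differences were fitted in R 4.3.3 with limma 3.58.1 (two-sided lmFit and eBayes without covariates) over 21214 clusters with a gene symbol, and Benjamini-Hochberg adjusted p-values under 0.05 were called. This left 2 residual and 5.16 prior degrees of freedom. Standard errors of the members lay between 0.122 and 0.246, and the number of arrays limits precision. Genes with several clusters are represented by the one of highest mean. All members were named, and of each list up to 4 genes with the smallest p, beside markers named after their values were seen. Alternatives changed moderation, scaling, the filter, the clusters tested, the threshold, the replicate term and the arrays. The steps were tested on simulated data. Figures used matplotlib 3.10.9 in Python 3.11.15.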

Additional observations from a re-analysis of the deposited data

How the results depend on the processing

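No member was called in limma under any change of moderation, scaling, filter, clusters tested or arrays. The looser thresholds were an adjusted p of 0.10 or a 1.5-fold difference at p under 0.05 unadjusted. They called 311 and 683 of the 21214 named clusters. At each of them 1 of the 10 members was called, KLK6. Its adjusted p was 0.0619 in the main test and ran from 0.0619 to 0.802 over the refits (0.234 with all transcript clusters). The signs of KLK3, KLK5, KLK6, KLK8, KLK10 and KLK13 held in every refit. The median difference of the members, -0.0375 in the main test, was -0.36 without the clusters below the median level, where 5 members remain, and ran from -0.0775 to 0 with each array left out. Of all named clusters 107 were called in the main test, but 245 with a robust intensity trend, 9 without moderation, 25 without clusters below the median level, 4 with all transcript clusters, 311 and 683 with those looser thresholds in the same order, and 0 to 0 with each array left out (1292 to 2367 at an unadjusted p under 0.05). A lone array was assumed to vary like the other group. Arrays at one median gave the same values as the main test, since each array's median over named clusters was 6.84. The cause of the other shifts was not tested.

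With each array left out the sign turned for KLK1 (-0.13 to 0.10), KLK4 (-0.14 to 0.02), KLK7 (-0.185 to 0.535), KLK11 (-0.395 to 0.045), KLK15 (-0.05 to 0.24), KLK14 (-0.105 to 0.065), CTU1 (-0.12 to 0.19), ESR1 (-0.005 to 0.265) and NR3C1 (-0.175 to 0.225). With all 4 arrays, FLG lost its call without moderation, without clusters below the median level, with all transcript clusters and with the replicate block described below.

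A replicate block on the replicate number gave 0 called clusters (2195 at an unadjusted p under 0.05) and KLK6 had an adjusted p of 0.155. Replicate differences of the groups correlated at 0.06 over clusters, and no label ties equal numbers to a batch. Some genes did move the same way by replicate number in both groups, among them KLK6, KLK7 and FN1. FN1 measured 8.06 and 10.78 in the arrays labelled H1.3, against 7.07 and 9.43 in the vector-only arrays. Others, such as KLK8 and KLK13, moved in opposite ways. A correlation over all clusters cannot decide if the arrays were paired, and they were treated as unpaired.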
